A study of Mus musculus with 9 samples.

Results

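The genes described here are 41 genes of glycolysis and glycogen metabolism, taken as a list of names from the 52780 genes of the count table: hexokinases, the enzymes down to lactate dehydrogenase, the muscle fructose bisphosphatase gene Fbp2, carriers of glucose and of lactate, pyruvate dehydrogenase kinases, and enzymes that build or break glycogen. All 41 were found, and all 41 were among the 19545 genes that passed the filter on low counts, Fbp2 only through the group in which it was high. They were measured by RNA sequencing of polyA-selected RNA from C2C12 cells, an immortal line of mouse myoblasts that fuses into myotubes when serum is withdrawn. Every sample was collected on day 4 of differentiation. The 9 samples fall into 3 groups of 3: cells labelled WT (wild type), cells given siRNA against mH2A1.1, and cells given siRNA against mH2A1.2, both siRNAs at 10 nM and delivered repeatedly around the change to differentiation medium. The labels of the WT samples do not state whether a non-targeting siRNA was delivered. All samples are of a single cell line. The study describes the sequenced replicates as biological and independent, and the labels do not say which cultures or days they came from.

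MacroH2A1.1 and macroH2A1.2 are splice isoforms of a histone variant that replaces H2A in nucleosomes, and they differ by mutually exclusive exons, of which that of macroH2A1.1 forms a pocket for ADP-ribose. Glycolysis splits glucose into pyruvate, which is either reduced to lactate and exported or oxidised in mitochondria, and muscle stores glucose as glycogen for use during contraction. Several steps are encoded by a muscle isoenzyme gene (Pfkm, Pgam2, Eno3, Pygm) beside a gene that most tissues use (Pfkl, Pgam1, Eno1, Pygb), and differentiating myoblasts are known to switch on the muscle genes.

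Total counts per sample ranged from 36924252 to 42223108. H2afy, the gene of both macroH2A1 isoforms, was measured as 1 value that cannot separate them. Its level was 56.3, 62.4 and 61.0 CPM (counts scaled to the size of the library) in WT, 38.8, 30.0 and 30.9 CPM in si mH2A1.1, and 46.8, 47.2 and 43.2 CPM in si mH2A1.2. Neither knockdown overlapped WT. The fall passed the test in si mH2A1.1 (log2 fold change -0.85, adjusted p = 0.00331) and not in si mH2A1.2 (-0.39, adjusted p = 0.108). By DESeq2 it passed in si mH2A1.2 (adjusted p = 0.0391), and in edgeR with the replicate number as a block it did not (0.0782). At the protein level, the paper reports immunoblots that showed the interference with each isoform to be specific. Summed over 17 myotube markers the level was 24279 to 35806 CPM in WT, 21951 to 26628 CPM in si mH2A1.1 and 20297 to 25716 CPM in si mH2A1.2. Over 11 markers of cycling or undifferentiated myoblasts it was 373 to 566, 519 to 995 and 308 to 418 CPM in the same order. Over 13 markers of adipocytes, osteoblasts, endothelial cells and macrophages it was at most 2.99 CPM in any sample. Of these 13, the genes with at most 3 counts in every sample were Adipoq, Cidec, Lep, Ibsp and Adgre1, with no endothelial marker among them. In such bulk samples, fewer cells of a type and less RNA per cell cannot be told apart. Replicate 1 of si mH2A1.1 and replicate 3 of si mH2A1.2 stood apart in the summed level of 19 hypoxia-responsive genes that are not among the 41. The sum was 1220 CPM against 2188 and 2550 CPM in the other si mH2A1.1 samples. It was 5892 CPM against 2895 and 3292 CPM in the other si mH2A1.2 samples. Of the 19, Pfkfb4 belongs to glycolysis and is also counted in the list of other glycolysis genes below.

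A gene is called higher or lower below where its adjusted p was under 0.05 in edgeR's quasi-likelihood test, adjusted by the Benjamini-Hochberg procedure over all 19545 genes. In si mH2A1.1 against WT, 8 of the 41 genes were called. Fbp2, Ugp2, Eno3, Phka1, Gyg and Slc16a1 were higher (6 genes, beside 6.18% of all tested genes called higher), and Pfkfb3 and Pfkm were lower (2 genes, beside 4.93% called lower). The call of Fbp2 is a description and no support, since a gene that passed the filter only through 1 group had to differ. The 33 others did not pass. The number called dropped to 2 without WT replicate 2 or si mH2A1.1 replicate 1 or 3, and to 4 without WT replicate 1 or 3. Over all tested genes the calls dropped in the same settings, from 2171 to 605, 689 and 666, and to 1524 and 810. With a stricter rule, adjusted p under 0.01 together with a log2 fold change of 0.8 or more in size, Fbp2 and Ugp2 were left, beside 1.80% of all tested genes. For 16 of the 41 genes (39.0%) the 3 knockdown samples lay outside the range of the 3 WT samples, 9 above and 7 below, close to the 34.2% of all tested genes for which this held. The median log2 fold change of the 41 genes was -0.09, beside -0.009 for all genes.

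In si mH2A1.2 against WT, Pgam2 was called, and it was lower. No gene of the 41 was called higher, beside 1.37% of all tested genes, and 0.982% of all tested genes were called lower. The unadjusted p was under 0.05 for 7 of the 41 genes: Pgam2, Pfkm, Aldoc, Slc2a3, Slc2a4, Slc16a1 and Gyg. By DESeq2, 3 were called, all 3 lower, and over all genes DESeq2 called 1113 of 17850, more than the 460 of 19545 by edgeR. None passed the stricter rule, which 0.179% of all tested genes passed. Samples did not overlap for 5 genes (12.2%), all 5 below WT, beside 22.5% of all tested genes. With the replicate number as a block, since same-numbered WT and si mH2A1.2 samples deviated together, 3 of the 41 were called: Pgam2 (adjusted p = 0.00811) and Gyg (0.0242) lower and Slc2a3 (0.0357) higher. The block raised the calls over all 19545 genes as well, to 1005.

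When the knockdowns were compared with each other, 11 of the 41 were called. Fbp2, Pgam2, Ldhb, Gyg, Ugp2, Phka1, Eno3 and Slc16a1 were higher in si mH2A1.1 (8 genes, beside 12.0% of all tested genes called higher). Slc2a3, Pygl and Pfkfb3 were lower (3 genes, beside 10.5% called lower). The stricter rule left Fbp2, Pgam2, Gyg, Ugp2, Phka1 and Slc2a3, beside 6.38% of all tested genes. For 14 genes (34.1%) the samples of the knockdowns did not overlap, 11 above and 3 below, beside 39.7% of all tested genes. The comparisons share samples with each other, so their calls are not independent.

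**Figure D1:**
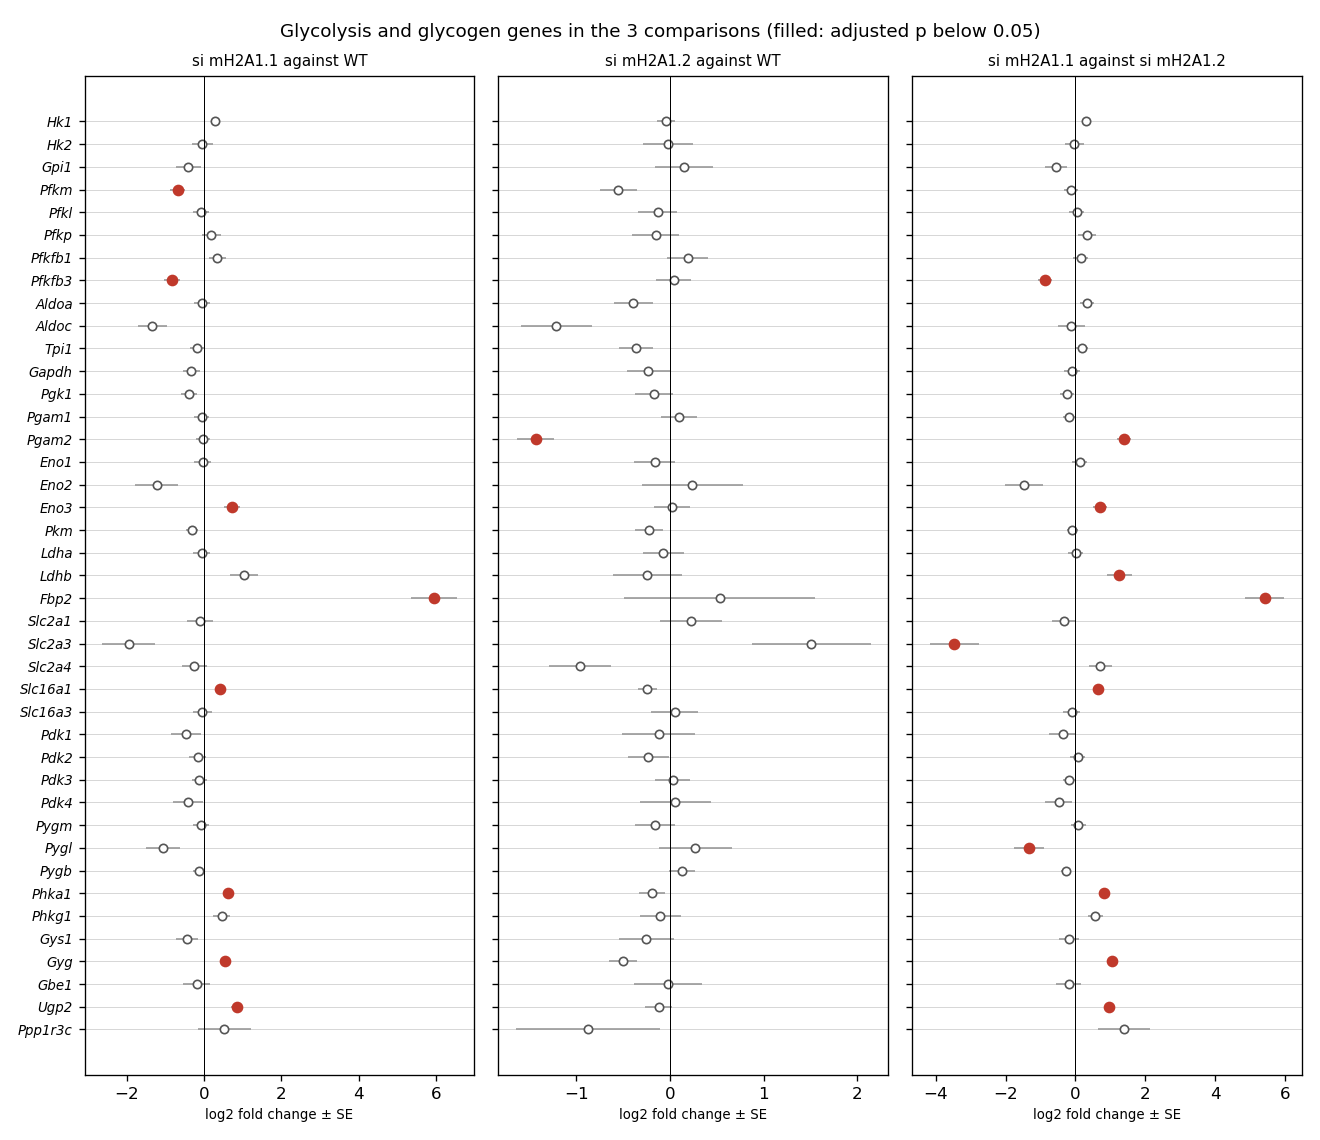
Log2 fold change of each of the 41 genes in the 3 comparisons, with bars of 1 standard error and filled points where the adjusted p was below 0.05. Fbp2 in si mH2A1.1 lies farthest from 0 (5.95 against WT), Pgam2 is the filled point of si mH2A1.2 against WT (-1.43), and most of the other glycolytic enzymes lie within 1 unit of 0.

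Per kilobase of exon, the most abundant of the 41 genes in WT were Aldoa (732 ± 117 CPM per kb, SD, n = 3), Pkm (562 ± 28.7), Pgk1 (560 ± 36.7), Tpi1 (395 ± 55.7), Ldha (347 ± 62.5), Gapdh (345 ± 59.4) and Pgam1 (307 ± 43.7). Pkm and Pgk1 differed by less than their SD, and so did each neighbouring pair from Tpi1 down to Pgam1, so the order within these is not resolved. The muscle genes Eno3 (251 ± 62.2) and Pfkm (179 ± 50.4) came next, and Fbp2 was last at 0.0119 ± 0.0103 CPM per kb. Between these ends, the phosphorylase of muscle Pygm stood at 46.3 ± 15.9 CPM per kb and the glucose transporter Slc2a1 at 45.2 ± 9.10 CPM per kb, again closer than their SD. The length counts every annotated exon base of a gene, so the order depends on it. Not divided by length, Eno1 stood at 526 CPM and Eno3 at 437 CPM in WT.

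The order of Gapdh, Pgk1 and Eno1 depends on near-identical copies elsewhere in the genome. Gapdh, the enzyme that oxidises glyceraldehyde 3-phosphate, shares at least 25% of the 31-base words of 87 other annotated genes, and 70.9 to 72.0% of the summed level of Gapdh and its copies was assigned to the copies in every sample. Of the copies, Gm13394, a processed pseudogene on chromosome 2 (28933610 to 28934609), held the most, with a mean of 117677 counts. It differs from the Gapdh coding sequence of 999 bases at 1 base, so that 900 of the 950 stretches of 50 bases, the read length, are the same in both. The lines below show coding bases 322 to 371 (GENCODE M21 transcript Gapdh-201), with the difference, A346C counted from the start codon, in capitals.
Gapdh: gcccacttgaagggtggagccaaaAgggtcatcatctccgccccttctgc
Gm13394: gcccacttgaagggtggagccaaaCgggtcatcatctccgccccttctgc
Reads of Gapdh are therefore split among loci that most of them cannot tell apart. For Eno1 the copies held 74.1 to 76.9% of the summed level, for Pgk1 28.8 to 36.8% and for Pgam1 10.7 to 15.6%. With copies added, Gapdh rose to 1213 CPM per kb in WT, Pgk1 to 860 and Eno1 to 390, so that Gapdh and Pgk1 stood above Aldoa. Adding them left the numbers of calls at 8, 1 and 11.

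**Figure D2:**
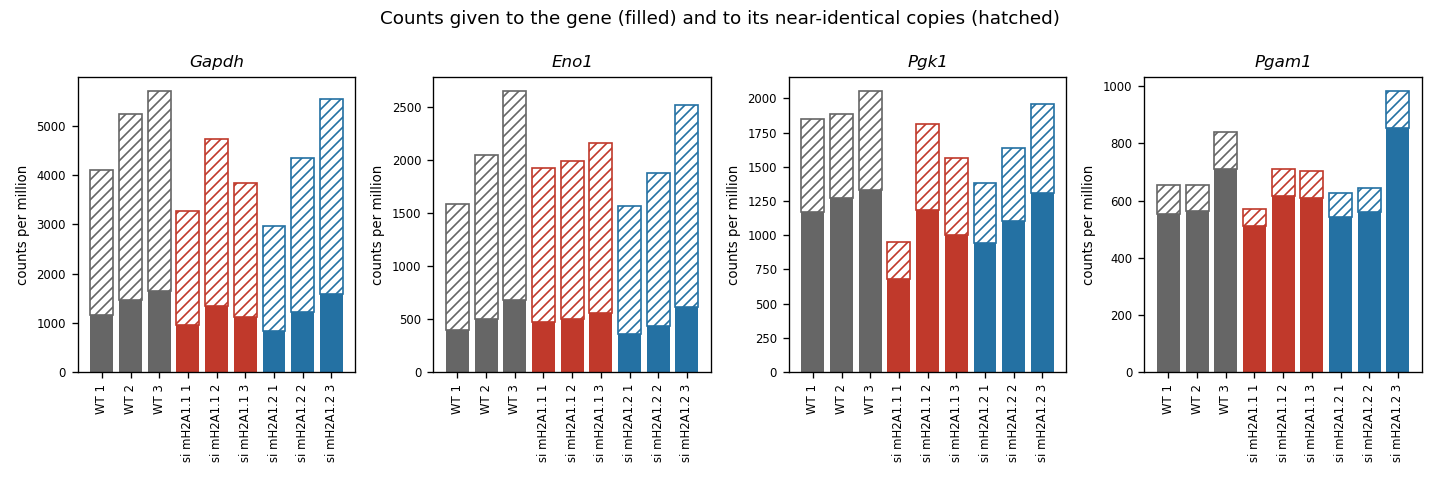
Level in CPM of genes with near-identical copies in each of the 9 samples, with the gene itself filled and its copies hatched. The copies make up 70.9 to 72.0% of the summed level for Gapdh and 74.1 to 76.9% for Eno1 in every sample, so that the groups differ little in this share.

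Glucose enters muscle cells through facilitative transporters. Slc2a1, the transporter of most cell types and the most abundant of the 3 here, was at 125, 160 and 189 CPM in WT, 109, 150 and 182 CPM in si mH2A1.1, and 114, 142 and 301 CPM in si mH2A1.2, and no comparison passed the test. Slc2a4, the insulin-responsive transporter of muscle and fat, was at 3.29, 2.53 and 4.82 CPM in WT, 2.69, 4.00 and 2.23 CPM in si mH2A1.1, and 2.39, 1.23 and 1.85 CPM in si mH2A1.2. The si mH2A1.2 samples lay below WT without overlap, but the difference did not pass (log2 fold change -0.96 ± 0.33, SE, adjusted p = 0.179).

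Slc2a3, a high-affinity glucose transporter on chromosome 6 (122727809 to 122801640, minus strand, GRCm38) was the least even of the transporters. It was at 2.30, 3.14 and 6.81 CPM in WT, 0.494, 1.28 and 1.36 CPM in si mH2A1.1, and 4.27, 6.78 and 23.8 CPM in si mH2A1.2. The si mH2A1.1 samples lay below both other groups, while WT and si mH2A1.2 overlapped and 1 si mH2A1.2 sample, replicate 3, stood far above the rest. Between the knockdowns Slc2a3 was lower in si mH2A1.1 by 3.47 ± 0.70 on the log2 scale (fold 0.0904, adjusted p = 0.00716). It kept this call under every alternative run, with log2 fold changes from -3.86 to -2.07. Against WT the log2 fold change was -1.96 ± 0.68 in si mH2A1.1 (adjusted p = 0.0870) and 1.51 ± 0.63 in si mH2A1.2 (0.270). With the replicate number as a block, the adjusted p against WT was 0.00601 in si mH2A1.1 and 0.0357 in si mH2A1.2.

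Hexokinases trap glucose in the cell. Hk1 was at 226, 212 and 242 CPM in WT, 271, 276 and 273 CPM in si mH2A1.1, and 214, 203 and 246 CPM in si mH2A1.2. All 3 si mH2A1.1 samples lay above the other 6, with a fold of 1.2 over WT that did not pass (adjusted p = 0.108), nor did the difference between the knockdowns (0.0532). With the replicate number as a block, the difference of Hk1 between the knockdowns was called (adjusted p = 0.0268). Hk2, the insulin-regulated isoenzyme of muscle, ranged from 97.8 to 194 CPM over all 9 samples with overlapping groups. Gpi1, which makes fructose 6-phosphate, was at 766, 1127 and 1230 CPM in WT, 603, 916 and 839 CPM in si mH2A1.1, and 647, 1108 and 1706 CPM in si mH2A1.2, with overlap throughout.

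Phosphofructokinase commits sugar to glycolysis. The muscle gene Pfkm (chromosome 15, 98092589 to 98132451, plus strand) was at 464, 542 and 787 CPM in WT, 335, 396 and 377 CPM in si mH2A1.1, and 358, 370 and 493 CPM in si mH2A1.2. Every si mH2A1.1 sample was below the lowest WT sample, while the si mH2A1.2 samples overlapped WT. Pfkm was lower in si mH2A1.1 by 0.69 ± 0.20 on the log2 scale (adjusted p = 0.0483). This call lay at the edge of the threshold: it was lost without WT replicate 2 or 3, without any 1 of the si mH2A1.1 replicates or without si mH2A1.2 replicate 2, with adjusted p from 0.0571 to 0.160. In si mH2A1.2 the log2 fold change of Pfkm was -0.55 ± 0.20 (adjusted p = 0.194). The genes of the liver and platelet isoenzymes, Pfkl (163 to 279 CPM) and Pfkp (148 to 296 CPM), overlapped in all comparisons.

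Pfkfb3 (chromosome 2, 11471433 to 11554077, minus strand) encodes an enzyme that makes fructose 2,6-bisphosphate, the activator of phosphofructokinase. Its level was 20.4, 22 and 22.6 CPM in WT, 9.46, 13.3 and 13.7 CPM in si mH2A1.1, and 17.6, 20.2 and 29.1 CPM in si mH2A1.2. The si mH2A1.1 samples lay below all 6 others. Pfkfb3 was lower in si mH2A1.1 than in WT (fold 0.561, log2 -0.83 ± 0.20, adjusted p = 0.0268) and than in si mH2A1.2 (fold 0.544, log2 -0.88 ± 0.20, adjusted p = 0.0117). The call against WT was lost without WT replicate 2 or 3 or without si mH2A1.1 replicate 1 or 3 (adjusted p 0.0606 to 0.0926). The call between the knockdowns was lost only when si mH2A1.1 replicate 1 and si mH2A1.2 replicate 3 were both left out (0.0515). Pfkfb1, of the same family, was low in every sample (1.23 to 2.00 CPM).

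Fbp2 (chromosome 13, 62836877 to 62858422, minus strand) encodes the muscle fructose bisphosphatase, which reverses the phosphofructokinase step. It had 0, 1 and 1 counts in WT, 57, 56 and 46 counts in si mH2A1.1, and 1, 0 and 2 counts in si mH2A1.2. In CPM, these were at most 0.0266 in WT and 0.0537 in si mH2A1.2 against 1.41, 1.38 and 1.06 in si mH2A1.1. Fbp2 was thus near 0 in 6 samples and present at a low level in the other 3, and it passed the filter on low counts only through these 3. Against a floor of 3 counts per library it was at least 16.2-fold higher than in WT and at least 15.9-fold higher than in si mH2A1.2. The floor covers counting error only. The 250 bases before its start in RefSeq (GRCm38.p6, chr13:62858401-62858650, minus strand), shown because Fbp2 had the largest fold change of the list, hold 1 CAGCTG, an E-box of the kind bound by myogenic factors, and 1 CACGTG, both in capitals.
Fbp2: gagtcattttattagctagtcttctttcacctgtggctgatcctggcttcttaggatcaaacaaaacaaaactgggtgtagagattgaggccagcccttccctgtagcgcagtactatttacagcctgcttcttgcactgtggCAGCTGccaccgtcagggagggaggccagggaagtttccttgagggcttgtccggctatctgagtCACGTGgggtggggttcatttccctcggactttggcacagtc

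Aldolase splits fructose 1,6-bisphosphate. Aldoa, the muscle isoenzyme gene and the most abundant of the list per kilobase when copies are not added, was at 1785, 2138 and 2469 CPM in WT, 1765, 2260 and 2129 CPM in si mH2A1.1, and 1166, 1673 and 2043 CPM in si mH2A1.2, with overlapping groups. Aldoc, the brain isoenzyme gene, was far lower: 8.86, 9.86 and 7.09 CPM in WT, 1.51, 5.95 and 2.76 CPM in si mH2A1.1, and 3.47, 3.65 and 4.00 CPM in si mH2A1.2. Both knockdowns lay below WT without overlap. Neither difference passed the test (log2 -1.34 ± 0.38, adjusted p = 0.0505 in si mH2A1.1, and -1.21 ± 0.38, adjusted p = 0.146 in si mH2A1.2). With the replicate number as a block, the adjusted p of Aldoc was 0.0202 in si mH2A1.1 and 0.0826 in si mH2A1.2.

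The genes of the following steps, which are present as a single main gene each, did not pass in any comparison. Tpi1, the triose phosphate isomerase, was at 1002, 995 and 1264 CPM in WT, 780, 1120 and 971 CPM in si mH2A1.1, and 698, 804 and 1039 CPM in si mH2A1.2. Gapdh was at 1162, 1473 and 1647 CPM in WT, 950, 1337 and 1114 CPM in si mH2A1.1, and 838, 1216 and 1585 CPM in si mH2A1.2. The groups overlapped for both genes. Pgk1, which forms the first ATP of the pathway, was at 1169, 1271 and 1332 CPM in WT, 678, 1185 and 1003 CPM in si mH2A1.1, and 941, 1106 and 1309 CPM in si mH2A1.2. Pkm, the pyruvate kinase of muscle, was at 2733, 2725 and 2978 CPM in WT, 1906, 2625 and 2289 CPM in si mH2A1.1, and 2143, 2340 and 2769 CPM in si mH2A1.2. Pgk1 overlapped in all comparisons, while Pkm lay below WT in all 3 si mH2A1.1 samples (log2 -0.31 ± 0.15, adjusted p = 0.211).

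Phosphoglycerate mutase holds the gene called in si mH2A1.2 against both other groups. For Gyg and Slc16a1 the si mH2A1.2 samples also lay below both other groups, but the difference from WT did not pass. Pgam2 (chromosome 11, 5801640 to 5803733, minus strand) encodes the muscle isoenzyme, whose loss causes a glycogen storage disease. Its level was 38.8, 48.1 and 57.0 CPM in WT, 55.1, 43.2 and 42.6 CPM in si mH2A1.1, and 14.2, 16.5 and 22.8 CPM in si mH2A1.2. The 3 si mH2A1.2 samples all lay below the other 6, and si mH2A1.1 overlapped WT. The mean fell from 48.0 ± 9.06 CPM (SD, n = 3) in WT to 17.8 ± 4.44 CPM in si mH2A1.2, a fold of 0.372 (log2 -1.43 ± 0.20, adjusted p = 0.0106). In si mH2A1.1 Pgam2 was at 47.0 ± 7.05 CPM, 2.64-fold above si mH2A1.2 (adjusted p = 0.00137). Both calls held without any 1 of the 9 samples. The other gene, Pgam1, was at 554, 564 and 709 CPM in WT, 510, 615 and 610 CPM in si mH2A1.1, and 541, 559 and 855 CPM in si mH2A1.2, with overlap throughout. The 250 bases before the Pgam2 start (RefSeq, GRCm38.p6, chr11:5803797-5804046, minus strand), shown because Pgam2 is the gene called in si mH2A1.2 against WT, hold 1 CAGCTG and 1 match to the MEF2 consensus, in capitals.
Pgam2: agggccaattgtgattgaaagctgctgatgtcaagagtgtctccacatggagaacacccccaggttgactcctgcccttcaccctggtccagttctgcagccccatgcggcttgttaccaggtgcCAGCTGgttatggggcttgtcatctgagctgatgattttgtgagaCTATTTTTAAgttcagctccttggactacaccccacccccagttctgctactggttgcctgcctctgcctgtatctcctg

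Enolase is encoded by 3 genes, and the muscle gene Eno3 (chromosome 11, 70657202 to 70662513, plus strand) was higher in si mH2A1.1. Its level was 361, 389 and 561 CPM in WT, 788, 648 and 716 CPM in si mH2A1.1, and 432, 356 and 542 CPM in si mH2A1.2. The si mH2A1.1 samples lay above the 6 others, and WT and si mH2A1.2 overlapped. Eno3 was 1.64-fold higher in si mH2A1.1 than in WT (log2 0.72 ± 0.20, adjusted p = 0.0426) and 1.62-fold higher than in si mH2A1.2 (0.70 ± 0.20, adjusted p = 0.0289). The call against WT was lost without WT replicate 1 or 2 or si mH2A1.1 replicate 1 or 3 (adjusted p 0.108 to 0.146), and that between the knockdowns without si mH2A1.1 replicate 1 or 3 or si mH2A1.2 replicate 1 or 2 (0.0583 to 0.106). Eno2, the neuronal gene, was at 90.3, 161 and 159 CPM in WT, 22.1, 74.8 and 78.1 CPM in si mH2A1.1, and 60.5, 146 and 279 CPM in si mH2A1.2. All si mH2A1.1 samples of Eno2 lay below WT, but the log2 fold change of -1.23 ± 0.55 did not pass (adjusted p = 0.165). With the replicate number as a block, Eno2 was called lower in si mH2A1.1 than in WT (adjusted p = 0.00739) and than in si mH2A1.2 (0.00399). Eno1, the gene of most tissues, ranged from 363 to 682 CPM with overlapping groups.

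Pyruvate is turned into lactate by lactate dehydrogenase, or enters mitochondria unless pyruvate dehydrogenase kinases block it. Ldha, the main gene of muscle, was at 1080, 982 and 1379 CPM in WT, 850, 1245 and 1200 CPM in si mH2A1.1, and 908, 925 and 1437 CPM in si mH2A1.2, with overlap. Ldhb (chromosome 6, 142490249 to 142507957, minus strand), the heart isoenzyme gene, was at 3.51, 5.54 and 8.77 CPM in WT, 11.1, 11.4 and 13.7 CPM in si mH2A1.1, and 2.64, 5.35 and 7.09 CPM in si mH2A1.2. All 3 si mH2A1.1 samples of Ldhb lay above the other 6. Ldhb was 2.40-fold higher in si mH2A1.1 than in si mH2A1.2 (log2 1.26 ± 0.37, adjusted p = 0.0330), and its log2 fold change against WT was 1.02 ± 0.36 (adjusted p = 0.0923). With the replicate number as a block, the adjusted p of Ldhb against WT was 0.0107. The call between the knockdowns was lost without si mH2A1.1 replicate 1 or 3 or si mH2A1.2 replicate 1 or 2 (0.0626 to 0.0943). The kinase genes Pdk1 (65.8 to 282 CPM over all samples), Pdk2 (21.5 to 41.9), Pdk3 (19.6 to 32.3) and Pdk4 (16.2 to 44.0) overlapped in every comparison. The most abundant, Pdk1, was at 180, 155 and 282 CPM in WT, 65.8, 197 and 178 CPM in si mH2A1.1, and 158, 138 and 272 CPM in si mH2A1.2.

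Lactate and pyruvate cross the membrane through monocarboxylate transporters. Slc16a1 (chromosome 3, 104638668 to 104658462, plus strand) was at 97.2, 95.6 and 93.6 CPM in WT, 123, 120 and 134 CPM in si mH2A1.1, and 75.0, 75.8 and 91.3 CPM in si mH2A1.2. The 3 groups did not overlap, with si mH2A1.1 highest and si mH2A1.2 lowest. Slc16a1 was 1.32-fold higher in si mH2A1.1 than in WT (log2 0.40 ± 0.10, adjusted p = 0.0308) and 1.56-fold higher than in si mH2A1.2 (0.64 ± 0.10, adjusted p = 0.00205), while the difference of si mH2A1.2 from WT did not pass (-0.24 ± 0.10, adjusted p = 0.258). The call against WT was lost without any 1 of the WT replicates or si mH2A1.1 replicate 1 or 3 (0.0653 to 0.110). The call between the knockdowns held throughout. Slc16a3, the lactate exporter of glycolytic muscle, ranged from 17.7 to 35.2 CPM with overlapping groups.

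**Figure D3:**
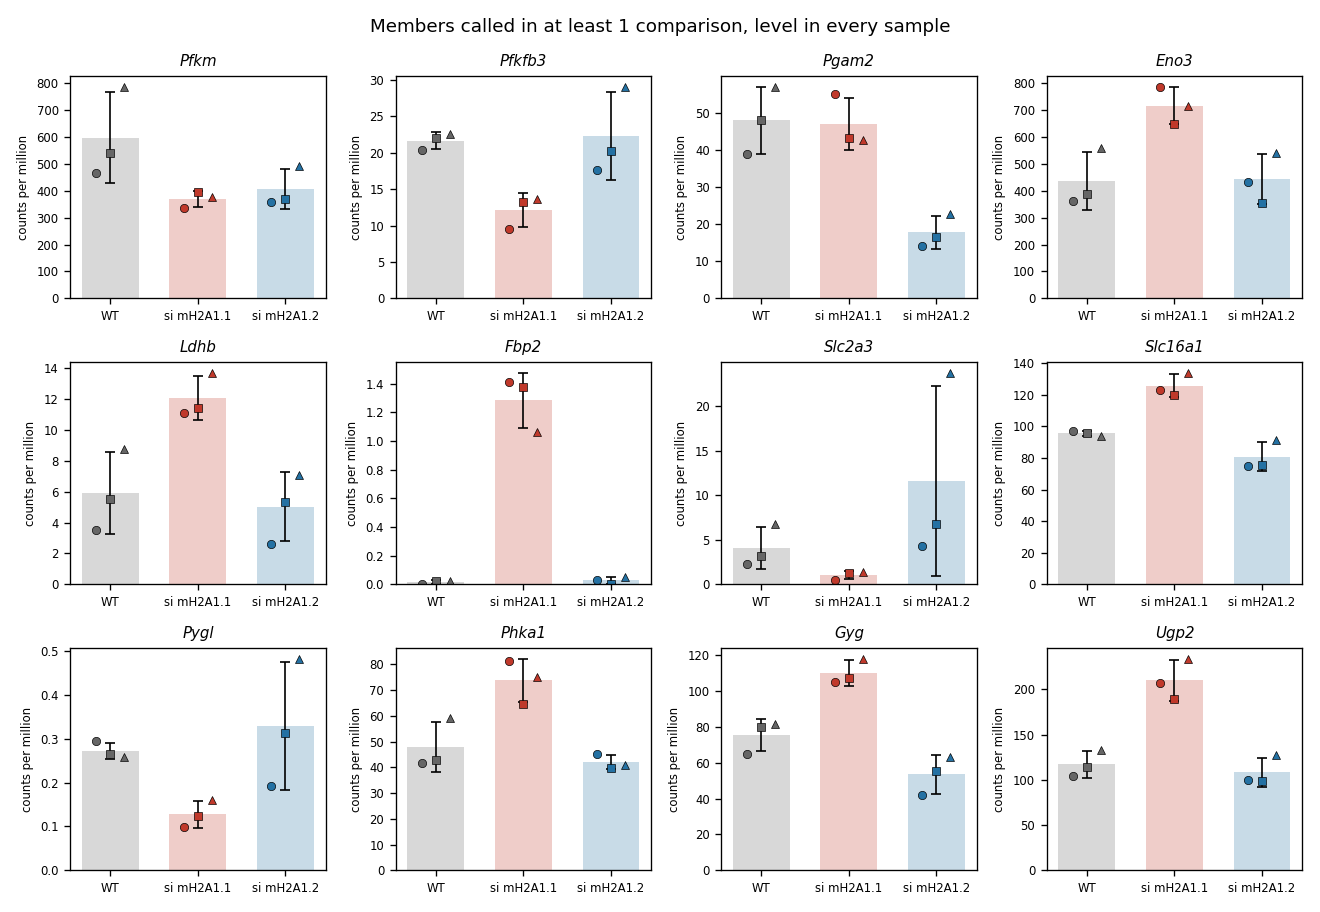
Level in CPM of each gene called in at least 1 comparison, by sample (circle, square and triangle for replicates 1, 2 and 3), with bars at the mean and error bars of 1 SD (n = 3). Pgam2 is lower in all 3 si mH2A1.2 samples (14.2 to 22.8), and Fbp2, Ugp2, Phka1 and Gyg are higher in all 3 si mH2A1.1 samples than in the other 6.

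Glycogen is built from UDP-glucose on a primer protein. Ugp2 (chromosome 11, 21321138 to 21371201, minus strand), which makes UDP-glucose, was at 104, 114 and 133 CPM in WT, 207, 189 and 234 CPM in si mH2A1.1, and 99.5, 98.2 and 127 CPM in si mH2A1.2. Every si mH2A1.1 sample lay above the other 6, and WT and si mH2A1.2 overlapped. Ugp2 was 1.79-fold higher in si mH2A1.1 than in WT (log2 0.84 ± 0.14, adjusted p = 0.00680) and 1.94-fold higher than in si mH2A1.2 (0.96 ± 0.14, adjusted p = 0.00155), and kept both calls under every alternative. Of the 250 bases before its start (RefSeq, GRCm38.p6, chr11:21371268-21371517, minus strand), shown because Ugp2 passed the stricter rule against WT, 6 matches to ACGTG or GCGTG on either strand are in capitals. These letters are the core bound by hypoxia-inducible factors. RefSeq gives Ugp2 a further start, whose window (chr11:21370630-21370879) holds 0 of these cores and 1 CAGCTG and is not shown.
Ugp2: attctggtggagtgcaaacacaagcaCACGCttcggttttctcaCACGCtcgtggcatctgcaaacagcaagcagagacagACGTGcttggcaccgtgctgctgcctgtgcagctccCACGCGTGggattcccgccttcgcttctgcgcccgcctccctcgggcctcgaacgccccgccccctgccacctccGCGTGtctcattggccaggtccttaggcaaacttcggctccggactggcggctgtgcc

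Gyg (chromosome 3, 20122084 to 20155317, minus strand) encodes glycogenin, the primer protein. It was at 65, 79.7 and 81.4 CPM in WT, 105, 107 and 118 CPM in si mH2A1.1, and 41.8, 55.3 and 63.2 CPM in si mH2A1.2. The 3 groups did not overlap: si mH2A1.1 was highest and si mH2A1.2 lowest. Gyg was 1.46-fold higher in si mH2A1.1 than in WT (log2 0.55 ± 0.15, adjusted p = 0.0416) and 2.06-fold higher than in si mH2A1.2 (1.04 ± 0.15, adjusted p = 0.00147). Against WT, the call in si mH2A1.1 was lost without any 1 of the WT or si mH2A1.1 replicates or si mH2A1.2 replicate 2 (0.0547 to 0.128). In si mH2A1.2 the log2 fold change against WT was -0.50 ± 0.15 (adjusted p = 0.124), and the block by replicate number gave adjusted p = 0.0242.

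Of the other genes of synthesis, Gys1, the glycogen synthase of muscle, was at 165, 155 and 280 CPM in WT, 111, 174 and 157 CPM in si mH2A1.1, and 141, 124 and 241 CPM in si mH2A1.2, with overlap. The branching enzyme gene Gbe1 (25.2 to 73.6 CPM) and Ppp1r3c (0.0522 to 0.803 CPM), which targets a phosphatase to glycogen, did not pass either. Of the genes that break glycogen down, Pygm, the muscle phosphorylase, was at 107, 134 and 206 CPM in WT, 143, 140 and 141 CPM in si mH2A1.1, and 120, 118 and 162 CPM in si mH2A1.2. Its groups overlapped, as did those of Pygb (46.0 to 63.7 CPM). Pygl, the liver gene, was near the limit of detection with 11, 10 and 10 counts in WT, 4, 5 and 7 counts in si mH2A1.1, and 7, 12 and 18 counts in si mH2A1.2. Its call between the knockdowns (log2 -1.34 ± 0.43, adjusted p = 0.0466) was lost when any 1 sample but si mH2A1.2 replicate 1 was left out (0.0677 to 0.180).

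Phosphorylase kinase switches phosphorylase on. Phka1 (chromosome X, 102513975 to 102644246, minus strand), its muscle regulatory subunit gene, was at 41.6, 42.9 and 59.1 CPM in WT, 81.4, 64.6 and 75.2 CPM in si mH2A1.1, and 45.0, 39.8 and 41 CPM in si mH2A1.2. The si mH2A1.1 samples lay above the 6 others. Phka1 was 1.54-fold higher in si mH2A1.1 than in WT (log2 0.62 ± 0.14, adjusted p = 0.0247) and 1.76-fold higher than in si mH2A1.2 (0.81 ± 0.14, adjusted p = 0.00400). The call against WT was lost without WT replicate 1 or 2 or si mH2A1.1 replicate 1 or 3 (0.0670 to 0.0962). The catalytic subunit gene Phkg1 was at 1.75 to 3.64 CPM and did not pass. Over the 10 glycogen genes, 3 were higher in si mH2A1.1 than in WT and 0 lower, 0 were called in si mH2A1.2 (1 by DESeq2 and 1 at an unadjusted p under 0.05), and 3 were higher and 1 lower between the knockdowns. Over the 19 glycolytic enzyme genes these numbers were 1 and 1, 0 and 1, and 3 and 0. Over all tested genes, 6.18% were called higher and 4.93% lower in si mH2A1.1, 1.37% and 0.982% in si mH2A1.2, and 12.0% and 10.5% between the knockdowns. The summed level of the glycogen genes was 567, 625 and 871 CPM in WT, 730, 766 and 819 CPM in si mH2A1.1, and 522, 533 and 769 CPM in si mH2A1.2, with overlap between WT and both knockdowns.

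The share of an isoenzyme gene in the summed level of its family, per kilobase, was compared as a description with no test. Pgam2 made up 14.2, 16.8 and 15.9% of phosphoglycerate mutase in WT, 20.3, 14.2 and 14.1% in si mH2A1.1, and 5.83, 6.51 and 5.91% in si mH2A1.2. The si mH2A1.2 shares lay within 1 percentage point of each other and below all others. Eno3 made up 69.2, 63.6 and 66.7% of enolase in WT, 83.0, 77.2 and 77.3% in si mH2A1.1, and 75.5, 64.5 and 64.3% in si mH2A1.2. With the copies of Eno1 added, the mean Eno3 share was 37.6% in WT, 51.4% in si mH2A1.1 and 39.0% in si mH2A1.2, so that the si mH2A1.1 samples remained highest at another level. Without division by length, and without the copies, the mean Eno3 share was 39.9% in WT, 55.7% in si mH2A1.1 and 42.0% in si mH2A1.2. The mean Pfkm share in WT was then 57.7%, beside 77.5% per kilobase. The size of a share thus depends on the lengths used. Ldhb made up 0.680, 1.18 and 1.32% of lactate dehydrogenase in WT, 2.68, 1.89 and 2.35% in si mH2A1.1, and 0.610, 1.2 and 1.03% in si mH2A1.2. Aldoc made up 0.441, 0.410 and 0.256% of aldolase in WT, 0.0761, 0.234 and 0.116% in si mH2A1.1, and 0.265, 0.194 and 0.174% in si mH2A1.2. Its share was below WT in si mH2A1.1 without overlap, and the other comparisons overlapped. The Pfkm share overlapped between all groups (65 to 81.9%), unlike the level of Pfkm itself, and so did the shares of Hk2 (34.0 to 52.9%), Slc2a4 (0.594 to 2.60%) and Pdk4 (10.8 to 24.9%). The shares of Pygm (73.5 to 86.8%) and Slc16a3 (10.7 to 28.1%) overlapped between WT and each knockdown and not between the knockdowns, where Pygm was higher and Slc16a3 lower in si mH2A1.1.

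**Figure D4:**
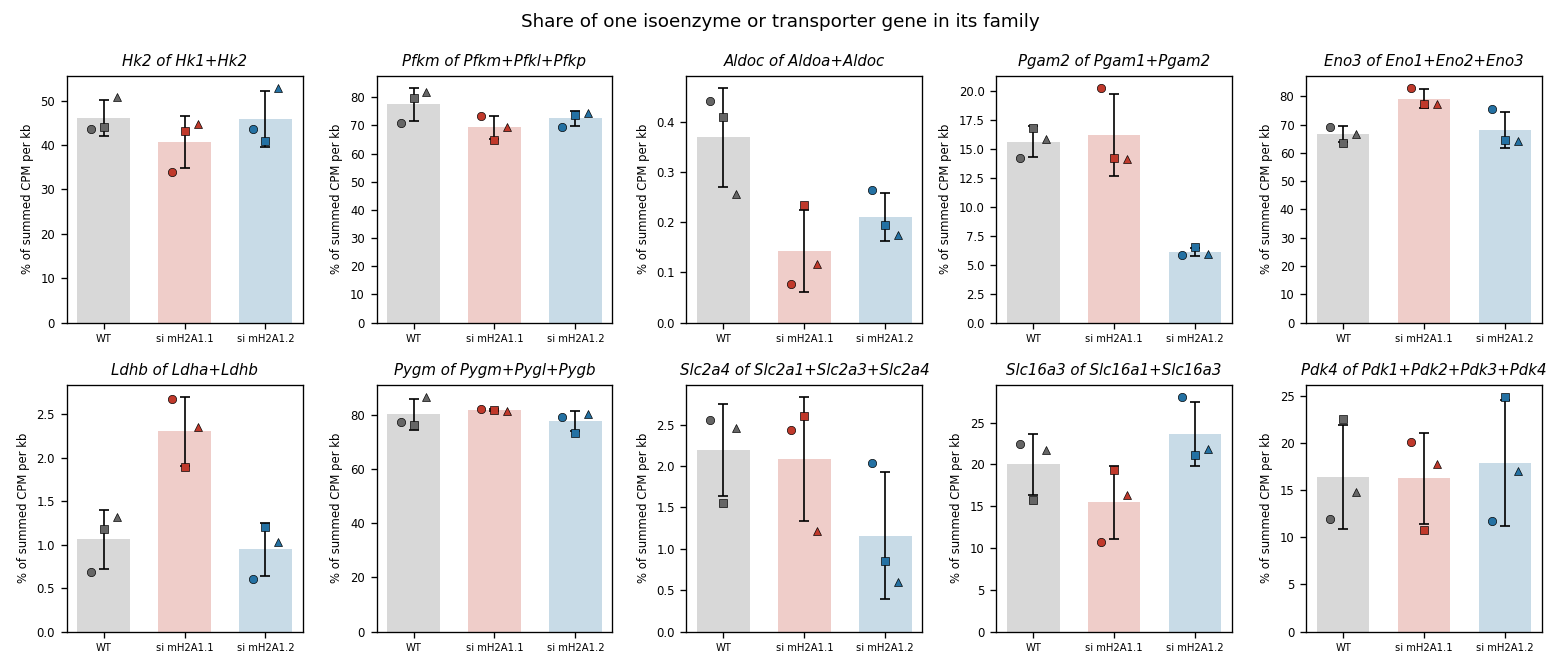
Share in percent of 1 isoenzyme gene in the summed CPM per kb of its family, by sample, with bars at the mean and error bars of 1 SD (n = 3). Pgam2 is at 5.83 to 6.51% in si mH2A1.2 against 14.1 to 20.3% in the other samples, and Eno3 at 77.2 to 83.0% in si mH2A1.1 against 63.6 to 75.5%.

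Promoter letters were counted in the same RefSeq windows of 250 bases, in which 39 of the 41 genes had an entry. Slc2a3 and Slc2a4 had none. CAGCTG was found for 11 of the 39 genes (28.2%), beside 14.7% of all 27025 genes, and ACGTG or GCGTG on either strand for 32 of 39 (82.1%), beside 41.5%. The MEF2 consensus was found for 2 of 39, Pfkfb1 and Pgam2, beside 2.0%. Genes with several starts have several windows, and the 39 genes had 57 of the 32851 windows, more per gene than the rest. Per window, CAGCTG was in 19.3% of those of the 39 genes and 13% of all, ACGTG or GCGTG in 70.2% and 38.6%, and the MEF2 consensus in 3.5% and 1.7%. These are counts of letters, without a test. The genes were not matched for base composition, on which the number of ACGTG and GCGTG, each with a CG, depends.

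Other genes of the same pathways were counted in lists. Beside the counts here and in the next paragraph, 6.18% of all tested genes were called higher and 4.93% lower in si mH2A1.1 against WT. The shares were 1.37% and 0.982% in si mH2A1.2 against WT, and 12.0% and 10.5% between the knockdowns. Of 38 tested genes of glucose transport, glycolysis, pyruvate, lactate and the pentose phosphate branch, 3 were higher in si mH2A1.1 than in WT, among them Gpd1l and Dld, 1 was lower (Tkt, transketolase, log2 -1.13, adjusted p = 0.0178), and 7 higher and 1 lower were called between the knockdowns, among them Slc16a8 (1.26) and Tigar (1.2). In si mH2A1.2 against WT edgeR called 0, DESeq2 called 1, and 6 had an unadjusted p under 0.05. The replicate block called 2 of the 38 there, Gpd1l higher (log2 0.47) and Gpd2 lower (-0.34, adjusted p = 0.0475). Of 18 further glycogen genes, Ppp1r3a, which anchors a phosphatase to glycogen in muscle, was at 2.52, 1.01 and 1.88 CPM in WT, 5.73, 7.53 and 9.40 CPM in si mH2A1.1, and 1.60, 1.28 and 1.21 CPM in si mH2A1.2. It was higher in si mH2A1.1 than in WT (log2 2.06, adjusted p = 0.00497) and than in si mH2A1.2 (2.47, adjusted p = 0.000860), and held without any 1 sample. Phka2, the liver counterpart of Phka1, was at 237, 236 and 200 CPM in WT, 91.6, 144 and 90.9 CPM in si mH2A1.1, and 136, 176 and 141 CPM in si mH2A1.2. Phka2 was thus lower in si mH2A1.1 than in WT (log2 -1.04, adjusted p = 0.00901) while Phka1 was higher. Phkb, the beta subunit gene, was lower in si mH2A1.1 than in si mH2A1.2 (-0.49, adjusted p = 0.0248), a call lost without si mH2A1.1 replicate 1 or 3 or any 1 of the si mH2A1.2 replicates. In si mH2A1.2 against WT, 0 of the 18 were called by edgeR and 0 by DESeq2, and 2 had an unadjusted p under 0.05. The replicate block called 1, Phka2, which was lower (log2 -0.58, adjusted p = 0.033).

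Among 24 regulators of glucose metabolism, 1 was higher in si mH2A1.1 than in WT and 2 were lower, Foxo1 (log2 -0.84) and Arnt (-0.57), the partner of hypoxia-inducible factors. Irs1, the insulin receptor substrate, was higher in si mH2A1.2 (0.74, adjusted p = 0.0126). Between the knockdowns 7 were higher and 4 lower in si mH2A1.1, with Epas1 (2.18), Irs2 (-1.39) and Arrdc4 (1.37) farthest from 0. Of the 19 hypoxia-responsive genes, 0 were called against WT in either knockdown by edgeR, with a median log2 fold change of -0.59 in si mH2A1.1 and 0.08 in si mH2A1.2, and 6 were lower in si mH2A1.1 than in si mH2A1.2, among them Ero1l (-2.11), Ndrg1 (-1.62) and Vegfa (-1.10). Against WT, DESeq2 called 2 of the 19 in si mH2A1.1 and 0 in si mH2A1.2, and 7 and 0 had an unadjusted p under 0.05. With the replicate block, 7 of the 19 were called in si mH2A1.1 against WT, all 7 lower, and 0 in si mH2A1.2. Over all 19545 genes the block called 4065 and 1005 in these comparisons. Of 19 tested genes of fatty acid oxidation or PPAR response, 5 were higher and 1 lower in si mH2A1.1 against WT, led by Fabp3 (2.17), Angptl4 (1.60) and Ucp3 (-1.12). In si mH2A1.2, Ucp3 was lower (-1.30), and between the knockdowns 8 were higher in si mH2A1.1, led by Fabp3 (2.64), Acadl (1.08) and Plin2 (0.93). With the replicate block, Angptl4 was also called in si mH2A1.2 against WT, higher (adjusted p = 0.0292).

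Of the calls in these lists in si mH2A1.1 against WT, those of Ppp1r3a, Phka2, Fabp3, Plin2 and Acadl held without any 1 sample. Those of Gpd1l, Dld, Tkt, Foxo1, Arnt, Angptl4 and Ucp3 were lost without WT replicate 2, si mH2A1.1 replicate 1 or si mH2A1.1 replicate 3, with adjusted p up to 0.141 for Dld. In si mH2A1.2 against WT, Irs1 was lost without WT replicate 1 or si mH2A1.2 replicate 2 (up to 0.0585), and Ucp3 without any 1 of the WT or si mH2A1.2 replicates or si mH2A1.1 replicate 3 (up to 0.116). Between the knockdowns, the calls of Tigar, Ppp1r3a, Fabp3, Acadl and Plin2 held, and those of Slc16a8 (up to 0.151), Epas1 (0.0973), Arrdc4 (0.0652), Ndrg1 (0.151) and Vegfa (0.0741) were lost without si mH2A1.1 replicate 3 or si mH2A1.2 replicate 3. Irs2 (0.0653) was lost without si mH2A1.1 replicate 1 or si mH2A1.2 replicate 2, and Ero1l (0.0520) without si mH2A1.1 replicate 1 or 3.

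Some cell state markers were called in the same comparisons. Over all tested genes, 6.18% were called higher and 4.93% lower in si mH2A1.1 against WT. The shares were 1.37% and 0.982% in si mH2A1.2 against WT, and 12.0% and 10.5% between the knockdowns. Of the 17 myotube markers, Mymx and Myog were lower in si mH2A1.1 than in WT, and Tnnt3 and Des were lower in si mH2A1.2. With the replicate block, 9 of the 17 were called in si mH2A1.1 against WT, 3 higher and 6 lower. In si mH2A1.2 the block called 5, all 5 lower, with Ckm, Tnnt1 and Casq2 added. By DESeq2, 6 were called in si mH2A1.1 and 4 in si mH2A1.2 against WT. Between the knockdowns 5 were higher and 3 lower in si mH2A1.1, with Myh7 (log2 -1.72), Ckm (1.14) and Des (1.07) farthest from 0. Of the 11 cycling or undifferentiated myoblast markers, 0 were called in si mH2A1.1 against WT by edgeR (5 by DESeq2 and 8 at an unadjusted p under 0.05), Myf5 was lower in si mH2A1.2, and all 11 were called between the knockdowns, 9 higher and 2 lower in si mH2A1.1, with Ccna2 (1.36), Pax7 (1.32) and Cdk1 (1.31) farthest from 0. With the replicate block, 7 of the 11 were called higher in si mH2A1.1 than in WT, beside 4065 calls over all 19545 genes. Of the 5 tested markers of other cell types, 0 were called by edgeR and 0 by DESeq2 in any comparison, with 2, 0 and 1 at an unadjusted p under 0.05 in the order of the comparisons above. Ckm, Des, Ccna2, Pax7 and Cdk1 kept their calls between the knockdowns without any 1 sample, and Myh7 lost its call without si mH2A1.2 replicate 2 or 3 (up to 0.0608). The calls of Mymx, Myog, Tnnt3, Des and Myf5 against WT were lost without WT replicate 3, among others (up to 0.160 for Des). Of the 9 fits without 1 sample, that of Myf5 was lost in all 9 (0.0507 to 0.149) and that of Des in 8. Those of Mymx, Myog and Tnnt3 were lost in 4 each. The part of these markers and of the hypoxia-responsive genes in the values of the 41 genes was not tested. Without si mH2A1.1 replicate 1 and si mH2A1.2 replicate 3, a setting chosen after the data were seen, Fbp2, Ugp2 and Pfkfb3 were called in si mH2A1.1 against WT, Pgam2 in si mH2A1.2 against WT, and Pgam2, Fbp2, Slc2a3, Slc16a1, Phka1, Gyg and Ugp2 between the knockdowns.

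The span of 19 of the 41 genes, introns included, overlaps that of another annotated gene. Among them are 6 that were called: Pfkm with Senp1 and Pfkfb3 with Gm10851 on the opposite strand and with Gm26513 and Gm37975 on the same strand, and Slc2a3, Slc16a1, Pygl and Ugp2 with non-coding genes or pseudogenes. Whether exons are shared was not examined, and the partners of Slc16a1 are annotated as lying in its introns. Whether the counting used strand is not given in the sources used here. Only where exons are shared could reads of such pairs be mixed, and strand would not separate partners on the same strand.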

How the data were processed

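RNA of 9 C2C12 samples (3 WT, 3 si mH2A1.1, 3 si mH2A1.2, day 4) was sequenced by the submitters as single reads of 50 bp. The authors quantified reads with Salmon on GRCm38 (mm10 in the submitters' notes) and deposited estimated counts per gene, which are whole numbers. The annotation release is not given in the sources used here. A second deposited table holds these counts scaled by a size factor for each sample and was not used. Total counts were 36924252 to 42223108 per sample.

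Gene names, positions and exon lengths came from GENCODE M21, and 18 gene identifiers had no name there. The length of a gene counts every base that is exon in any of its transcripts, so it can exceed that of the transcripts present. Aldoa has 2 identifiers, and ENSMUSG00000030695, which holds nearly all of its counts, was used. Counts were scaled with TMM, filtered with filterByExpr and tested with edgeR 4.0.16 (legacy quasi-likelihood form, R 4.3.3), all 9 samples in 1 model, with Benjamini-Hochberg adjustment over 19545 genes. The steps were tested on simulated data. CPM use TMM library sizes. DESeq2 1.42.0 was an alternative, beside other scaling, filters, a replicate block, only the 6 samples compared, and each sample left out. Exact permutation tests of 3 against 3 samples cannot go below p = 0.1 and were not used. Copies were genes of which at least 25% of the 31-base words occur in a member's transcripts.

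The labels number the replicates. Deviations from the group mean of same-numbered samples correlated at 0.196 to 0.331 between WT and si mH2A1.2, above 0.1 in all 3 pairs, so the blocked value is given there. Between WT and si mH2A1.1 they correlated at 0.084 to 0.098, and between the knockdowns at 0.092 to 0.116. All 18 pairs of samples with different numbers correlated lower, at -0.267 to 0.036. In si mH2A1.1 against WT and between the knockdowns, the blocked value is given for members whose call the block added. In si mH2A1.1 against WT it is also given for the hypoxia-responsive, myotube and cycling genes.

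The 41 genes and the other lists were chosen with earlier results of these data known. Named with all values were genes called in any comparison, the most abundant gene of each family in WT, and genes whose knockdown samples did not overlap WT with a log2 fold change of 0.5 or more in size. Of each other list the 3 called genes with the largest absolute log2 fold change per comparison were named, except some that are not reported here. Ppp1r3a and Phka2 are given in full as the glycogen genes called against WT.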

Additional observations from a re-analysis of the deposited data

How the results depend on the processing

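The numbers of called genes depended on single samples. Leaving out 1 sample at a time gave 2 to 9 genes in si mH2A1.1 against WT (8 with all samples), 1 to 2 in si mH2A1.2 against WT (1) and 8 to 11 between the knockdowns (11). In si mH2A1.1 against WT, 2 genes (Fbp2 and Ugp2) were left without WT replicate 2, si mH2A1.1 replicate 1 or si mH2A1.1 replicate 3, and 4 without WT replicate 1 or 3. Calls over all tested genes went from 2171 to 605, 689, 666, 1524 and 810 in these settings. The 2 calls in si mH2A1.2 against WT, Pgam2 and Aldoc, came without si mH2A1.1 replicate 1 or 2. Without si mH2A1.1 replicate 1 and si mH2A1.2 replicate 3 together, 3 and 7 genes were called in si mH2A1.1 against WT and between the knockdowns (618 and 1631 over all genes), and the median log2 fold change between the knockdowns went from 0.011 to 0.359. The stricter rule gave 2, 0 and 6 genes. In si mH2A1.2 against WT, DESeq2 called 3 genes (Aldoc, Pgam2 and Gyg), the replicate block 3, and the fit to only the 6 samples compared 2. With the replicate block, 12 genes were called in si mH2A1.1 against WT (Aldoc, Eno2, Ldhb and Slc2a3 added) and 13 between the knockdowns (Hk1 and Eno2 added). The block raised the calls over all genes from 2171 to 4065 in si mH2A1.1 against WT, from 460 to 1005 in si mH2A1.2 against WT and from 4397 to 5674 between the knockdowns. DESeq2 raised them to 3354, 1113 and 5037 in the same order. The cause of these rises was not tested. Of the 41 genes, DESeq2 called 10 in si mH2A1.1 against WT (Aldoc and Ldhb added) and 11 between the knockdowns (Hk1 added and Pygl lost). Leaving out 1 sample, the median log2 fold change ranged from -0.211 to 0.02 in si mH2A1.1, from -0.323 to 0.061 in si mH2A1.2 and from -0.108 to 0.196 between the knockdowns, within 1 SD of the replicates.

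The 20 calls of single genes were refitted under 356 combinations of gene and alternative. In 298 the call was kept, in 58 it was lost, and in 0 it reversed. The 10 never lost were Fbp2 and Ugp2 in si mH2A1.1 against WT, Pgam2 in si mH2A1.2 against WT, and Pgam2, Fbp2, Slc2a3, Slc16a1, Phka1, Gyg and Ugp2 between the knockdowns. Fbp2 passed the filter only through si mH2A1.1, so its calls support nothing, and it has no value under the filter of at least 10 counts in every sample. Summing the copies was chosen after the data were seen and changed no call. Of 240 differences in isoenzyme share between groups under other settings, 6 moved by more than 1 SD and 0 reversed. Depth limits Fbp2, Pygl and Ppp1r3c, which had few counts.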
